A study of Saccharomyces cerevisiae with 136 samples.

Results

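The cytosolic ribosomal protein genes encode the protein part of the ribosomes that translate nuclear transcripts in the cytoplasm. They were chosen here by name: a gene belonged to the family if its standard name in the R64 annotation of Saccharomyces cerevisiae was RPL (large subunit) or RPS (small subunit) followed by a digit, or if it was a stalk gene, RPP0, RPP1A, RPP1B, RPP2A or RPP2B. The rule gave 137 of the 5997 genes in the deposited table: 76 large-subunit, 56 small-subunit and 5 stalk genes. No measured value entered the rule.

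Haploid wild-type yeast was grown on solid SD agar, new daughters were followed by microdissection, and single mother cells were picked by hand at 2 h, 16 h and 36 h after birth. Each cell was lysed in its own tube with external spike-in RNA and sequenced as its own Smart-seq2 library, which primes on the poly(A) tail. The table holds 37 cells of the 2-h, 43 of the 16-h and 45 of the 36-h age group, and the study's own record of divisions splits the later groups at their mean generation. The slow-dividing subgroups are 16-h/S (17 cells) and 36-h/S (18 cells), and the fast-dividing ones 16-h/F (26 cells) and 36-h/F (27 cells). All groups share the genotype, the medium and the described protocol. They differ in the time of collection and in completed divisions, which were 1 in 2-h cells, 5 to 12 in 16-h cells and 8 to 22 in 36-h cells. The study's methods give no library or sequencing batch for the cells, so any such difference between ages cannot be told apart from age. The labels name the strain BY4742 in the strain and growth fields and BY4741 in the titles. Reads of the 5 MATalpha-specific genes measured were above those of the 3 MATa-specific genes in 102 of 125 cells, and the MATa-specific genes had no read in 96 cells. LYS2, which BY4742 lacks and BY4741 carries, had 40 reads in all, in 5 cells.

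Because every library is a single cell and no separate culture is named, each age group counts as 1 sample. No test was made between groups. The SDs below are spreads among cells, and a gene was called changed when its mean log2 normalized count differed by 1 or more between groups, among the 1905 genes whose mean log2 level over all cells was 2 or more. Of the family, 132 genes passed this level filter and 5 did not.

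In yeast most ribosomal proteins are encoded by a pair of nearly identical paralogs, named A and B, and many of these genes carry an intron although introns are rare in this organism. Their promoters are bound by the regulator Rap1, which recruits Fhl1 and Ifh1, and they are transcribed together under the TOR and protein kinase A nutrient pathways. The family takes a large part of the mRNA of growing cells, and is known to be shut down jointly when growth stops.

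Among the 125 libraries, 40883 to 833501 reads were recovered per cell with a median of 263709, and the group medians were 270573 in 2-h, 262919 in 16-h and 252159 in 36-h cells. The number of genes detected was 2078 ± 268 in 2-h cells, 2350 ± 549 in 16-h cells and 2229 ± 552 in 36-h cells (SD among cells). Slow-dividing cells had fewer genes detected than fast-dividing ones, with 2112 in 16-h/S against 2505 in 16-h/F cells and 1940 in 36-h/S against 2421 in 36-h/F cells. A value of 0 was found for 62.88% of all gene and cell combinations, and for 3.26% of the family's in 2-h, 4.77% in 16-h and 14.1% in 36-h cells.

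Sequences show what the reads could and could not tell apart. Of the 59 paralog pairs, the coding sequences were 69.2% to 99.4% identical with a median of 93.2%, and in 46 pairs at least 80% of all stretches of 50 bases were found in only that copy. The last 99 coding bases of 3 pairs are given below, 5′ to 3′ on the strand of the gene, from the RefSeq R64 assembly. Capitals mark the bases that differ between the copies. RPS18 and RPS26 encode small-subunit proteins and are the pairs whose balance is described further on, and RPL35, a large-subunit protein near the exit of the nascent chain, is the least distinguishable pair. RPS18A lies at chrIV:1360700-1360798 (plus strand), RPS18B at chrXIII:222987-223085 (minus strand), RPS26A at chrVII:148229-148327 (minus strand), RPS26B at chrV:424213-424311 (plus strand), RPL35A at chrIV:118419-118517 (plus strand) and RPL35B at chrIV:218269-218367 (plus strand).
RPS18A: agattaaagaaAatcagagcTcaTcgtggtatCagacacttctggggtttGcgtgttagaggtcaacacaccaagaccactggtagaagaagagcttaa
RPS18B: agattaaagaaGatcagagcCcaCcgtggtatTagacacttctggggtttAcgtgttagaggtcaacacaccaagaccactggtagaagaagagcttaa
RPS26A: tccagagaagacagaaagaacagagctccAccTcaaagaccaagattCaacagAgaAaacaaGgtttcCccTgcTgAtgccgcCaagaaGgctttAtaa
RPS26B: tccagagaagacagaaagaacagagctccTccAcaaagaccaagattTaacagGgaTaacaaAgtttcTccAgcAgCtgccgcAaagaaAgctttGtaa
RPL35A: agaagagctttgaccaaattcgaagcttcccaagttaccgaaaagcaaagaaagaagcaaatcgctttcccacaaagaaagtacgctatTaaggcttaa
RPL35B: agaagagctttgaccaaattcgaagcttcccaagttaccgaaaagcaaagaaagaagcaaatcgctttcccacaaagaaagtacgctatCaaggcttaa

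The stretches differed at 5 bases between the RPS18 copies, at 13 between the RPS26 copies and at 1 between the RPL35 copies. Over the whole coding sequence, 98.0% of the 50-base stretches of RPS18 and all of those of RPS26 were found in 1 copy only, against 18.6% for RPL35. Values of a single copy of RPL35, RPL1 (19.01% unique), RPL41 (31.03%) or RPL7 (37.7%) are therefore uncertain, since the counting could have split or dropped reads that match both.

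The promoters of the family were searched for the Rap1 core ACCCNNACA, on both strands, in the 500 bases before each start codon. The motif was found in 54 of 137 family promoters (39.4%) and in 5.52% of all 5692 promoters of the same length, and the nearest match lay 162 to 489 bases before the start codon with a median of 313. Other spellings of the Rap1 site were not searched, so the absence of a match says only that these letters are not in this window. The PAC element GATGAG was found in 21.9% of family promoters and 27.9% of all promoters, and the RRPE core AAAATTTT in 12.4% and 12.8%. Of the genes described below, 4 are shown around their match, as stretches on the strand of the gene with the motif in capitals. They are RPL9A (chrVII:228606-228664, minus strand, motif on the opposite strand), RPS0A (chrVII:920075-920125, plus strand), RPP1B (chrIV:229607-229665, plus strand) and RPL41B (chrIV:222112-222170, minus strand).
RPL9A: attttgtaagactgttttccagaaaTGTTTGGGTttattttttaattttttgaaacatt
RPS0A: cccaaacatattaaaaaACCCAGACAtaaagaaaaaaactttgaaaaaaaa
RPP1B: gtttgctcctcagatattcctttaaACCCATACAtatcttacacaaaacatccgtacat
RPL41B: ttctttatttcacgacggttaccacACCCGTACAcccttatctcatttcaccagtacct

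The family's mRNA level was lower at each later age. Taken as the mean log2 normalized count over the 137 genes in a cell, it was 7.47 ± 0.20 in the 2-h, 6.96 ± 0.60 in the 16-h and 5.84 ± 1.24 in the 36-h age group (SD among 37, 43 and 45 cells). The cells of the 2-h group lay between 6.95 and 7.76 with a median of 7.45, those of the 16-h group between 5.31 and 7.70 with a median of 7.15, and those of the 36-h group between 2.41 and 7.56 with a median of 6.01. The single highest cell of each group was thus at almost the same level, while the medians were lower and the cells extended further downwards at later ages.

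The difference of the means was −0.50 for 16-h minus 2-h, −1.12 for 36-h minus 16-h and −1.63 for 36-h minus 2-h. A randomly drawn 36-h cell had a higher level than a randomly drawn 2-h cell with a probability of 0.0390, and for a 16-h against a 2-h cell this was 0.173. Of the 36-h cells, 38 of 45 lay below the lowest 2-h cell (84.4%, exact 95% interval 70.5 to 93.5%), against 13 of 43 16-h cells (30.2%, 17.2 to 46.1%). No 2-h cell lies below that value by construction. These intervals cover the error of counting cells only and take the lowest 2-h cell as a fixed value. With only cells whose spike-in share was at most 0.5, an alternative chosen after seeing the data, 81.1% of 36-h and 18.9% of 16-h cells lay below the lowest 2-h cell.

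**Figure D1:**
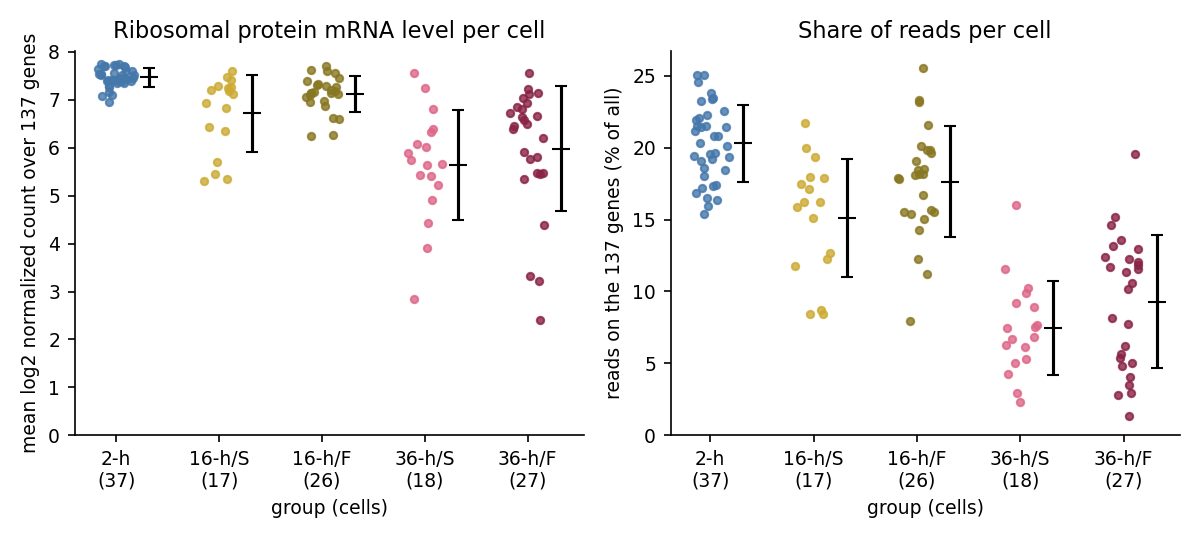
Level of the ribosomal protein genes in each of the 125 cells, by group in order of age with 16-h and 36-h split into S and F. Points are cells and the bars give the mean ± SD among cells: on the left the mean log2 normalized count over the 137 genes, between 6.95 and 7.76 in all 2-h cells and as low as 2.41 at 36 h, and on the right the percent of a cell's reads that fell on these genes.

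As a share of reads, which uses no size factor, the family took 20.3 ± 2.65% of a 2-h cell's reads, 16.6 ± 4.09% at 16 h and 8.56 ± 4.18% at 36 h. The lowest share was 15.4% in a 2-h cell, 7.92% in a 16-h cell and 1.35% in a 36-h cell. The highest share was 25.1% in a 2-h cell, 25.5% in a 16-h cell and 19.6% in a 36-h cell. On average 133 of the 137 genes were detected in a 2-h cell, 130 in a 16-h cell and 118 in a 36-h cell, where the number ranged from 50 to 137.

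The number of genes detected moved with the level in the later groups. The Pearson correlation across cells between the family's level and the genes detected was −0.02 in 2-h, 0.57 in 16-h and 0.70 in 36-h cells, and with log2 reads it was −0.02, 0.49 and 0.60 in the same order of ages. Both measures come from the same libraries. Among cells with 1500 to 2500 genes detected, a limit set after seeing the data, the level was 7.48 ± 0.19 in 33 2-h cells, 6.99 ± 0.54 in 22 16-h cells and 5.38 ± 1.24 in 24 36-h cells. That limit kept 33 of 37 2-h, 22 of 43 16-h and 24 of 45 36-h cells, and it is set on a measure that moved with the level. The part of detection in the differences between ages was not tested.

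Of the 132 genes, 115 fell by 1 or more on the log2 scale at 36 h relative to 2 h, and none rose. Over all 1905 genes 21.6% fell and 29.4% rose by that size. The median of the gene differences was −1.68 for the family, against +0.36 for the 1773 other genes. Between 36 h and 16 h 80 family genes fell (15.2% of all genes), and between 16 h and 2 h 4 fell (8.82% of all genes), namely RPL18B, RPS14B, RPS22A and RPS28B, a count that ranged from 0 to 6 over the alternatives tried. Without any size limit, 133 of 137 genes were lower at 36 h than at 2 h, and 130 of 137 followed the order 2 h, 16 h, 36 h from high to low.

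With the log2 of the mean normalized count in place of the mean log2 value, which gives low values less weight, 61 family genes fell at 36 h. On that measure 10.2% of all genes counted fell. Median differences also depend a little on the scaling: the median over all 1905 genes was +0.24 as deposited, +0.02 with each cell scaled to the same sum of reads and −0.08 with the same sum outside the family, and 128, 129 and 130 of the 132 family genes were below 0.

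All 3 parts of the family took part. Of the large-subunit genes 63 of 71 fell at 36 h (median difference −1.79), of the small-subunit genes 49 of 56 (−1.62) and of the stalk genes 3 of 5 (−1.27). Genes with an intron had a median of −1.79 (80 of 84 fell) and genes without −1.42 (35 of 48 fell). With the Rap1 core in the promoter the median was −1.71 (50 of 52 fell) and without it −1.62 (65 of 80 fell). The 114 genes that belong to a paralog pair had a median of −1.74 (101 fell), against −1.36 (14 fell) in the 18 genes with no paralog. The 33 genes with the lowest level at 2 h had a median of −1.82 and the 33 with the highest −1.53, with 29 falling in each.

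**Figure D2:**
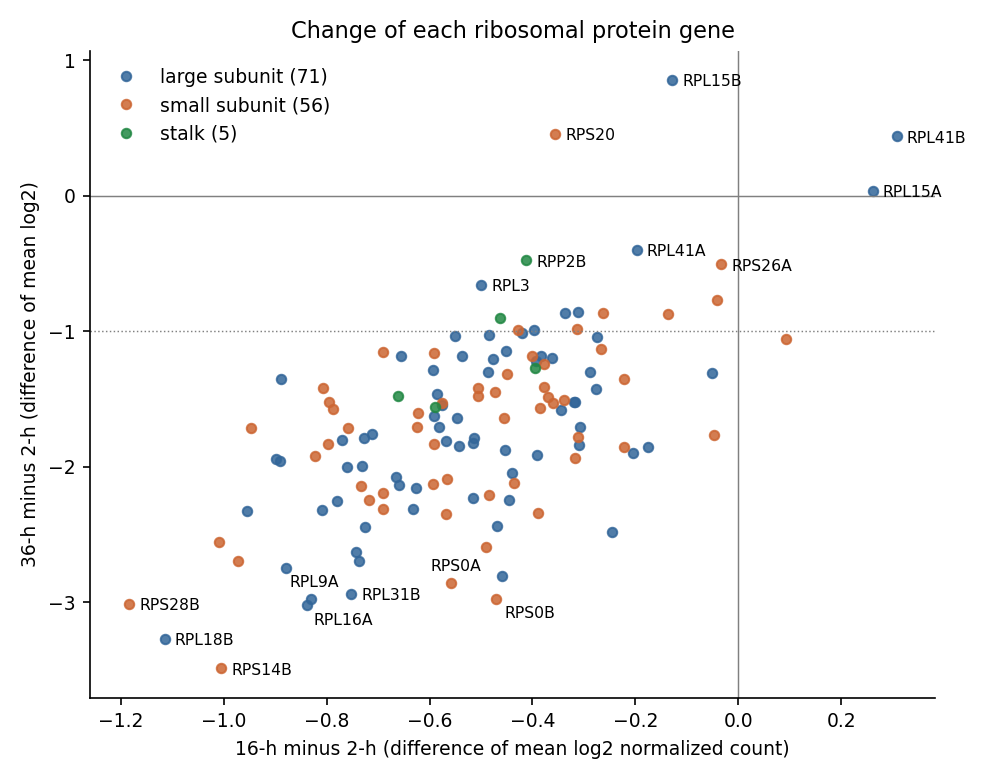
Difference of mean log2 normalized count of each of the 132 genes at 36 h minus 2 h (vertical) against 16 h minus 2 h (horizontal), coloured by subunit. Most points lie below the dotted line at −1 on the vertical axis and left of 0 on the horizontal axis. RPL15A, RPL15B, RPS20 and RPL41B lie above 0, and RPS14B is lowest at −3.49.

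The genes that fell most at 36 h encode proteins of both subunits. RPS14B (YJL191W) encodes a small-subunit protein that is known to bind and repress the transcript of this gene. It ranged from 0 to 9.30 log2 normalized counts in 2-h cells with a median of 5.98, from 0 to 9.35 with a median of 5.32 at 16 h, and from 0 to 8.54 with a median of 0 at 36 h. The groups overlapped over most of their range, and they differed in the cells with any read, which were 31 of 37 for the 2-h, 32 of 43 for the 16-h and 13 of 45 for the 36-h group. The difference 36-h minus 2-h was −3.49 in mean log2 and −1.85 in log2 of the mean.

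RPL18B (YNL301C), a large-subunit gene, behaved alike. Its median was 6.64 at 2 h (range 0 to 8.53), 5.48 at 16 h (0 to 7.62) and 0 at 36 h (0 to 7.94), with reads in 33, 34 and 19 cells of these groups. Its difference at 36 h was −3.27, and −2.25 in log2 of the mean.

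The other 6 of the 8 largest decreases were seen in every 2-h cell. RPL16A, encoding a large-subunit protein, lay between 6.33 and 9.89 in 2-h cells (median 7.97), between 0 and 9.15 at 16 h (7.44) and between 0 and 8.26 at 36 h (6.18), a difference of −3.02. RPL9A, whose promoter is printed above, lay between 7.10 and 10.31 in 2-h cells (median 8.99), between 0 and 9.64 at 16 h (8.46) and between 0 and 8.84 at 36 h (7.40), a difference of −2.98. In both genes the medians and the highest cells were lower at 36 h than at 2 h while the ranges overlapped, and a part of the 36-h cells had no read, with RPL16A found in 35 of 45 and RPL9A in 37 of 45.

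RPS28B, a small-subunit gene whose transcript is known to be degraded under control of its own protein, had a median of 5.65 at 2 h (2.94 to 7.02), 4.76 at 16 h (0 to 6.17) and 3.09 at 36 h (0 to 6.79), a difference of −3.01. RPL31B, encoding a protein near the exit tunnel, had a median of 7.31 at 2 h (5.63 to 8.47), 6.59 at 16 h (0 to 8.71) and 5.65 at 36 h (0 to 8.19), a difference of −2.94.

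The paralogs RPS0A and RPS0B, which encode a protein needed to mature the rRNA of the small subunit, both fell among the 8 most. RPS0B was between 7.97 and 11.10 in 2-h cells (median 9.83), between 7.30 and 10.99 at 16 h (9.47) and between 0 and 9.49 at 36 h (7.87), a difference of −2.98. RPS0A was between 7.94 and 10.30 in 2-h cells (median 9.41), between 6.91 and 10.16 at 16 h (8.81) and between 0 and 10.59 at 36 h (7.48), a difference of −2.86. The 2-h and 16-h ranges of both copies nearly coincided, and most of the difference arose between 16 h and 36 h, where it was −2.51 for RPS0B and −2.30 for RPS0A.

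A few genes went against the rest. RPL15B (YMR121C), the minor copy of a core large-subunit protein, was at a median of 0.85 in 2-h cells (0 to 8.09), 0.66 in 16-h cells (0 to 8.27) and 2.79 in 36-h cells (0 to 9.34), with reads in 20, 22 and 26 cells. Its difference at 36 h was +0.85 and did not reach 1, and in log2 of the mean it was +1.33. RPL15A, the major copy, had medians of 8.50, 8.74 and 8.59 at 2, 16 and 36 h and a difference of +0.03 at 36 h, which became −0.35 with the same sum of reads and −0.55 with the same sum outside the family.

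RPS20, a small-subunit gene, was low, with medians of 4.03, 3.45 and 4.85 at 2, 16 and 36 h and a difference of +0.46 at 36 h. RPL41B, which encodes a very short peptide between the subunits, was found in every cell, between 5.13 and 7.43 at 2 h (median 6.65), between 5.44 and 8.26 at 16 h (6.92) and between 5.11 and 8.001 at 36 h (7.12). Its difference of +0.44 at 36 h became +0.05 with the same sum of reads and −0.14 with the same sum outside the family. Its copy RPL41A, with which it is 98.7% identical, had a difference of −0.40. None of RPL15A, RPL15B, RPS20 and RPL41B had a decrease of 1 under any of the 3 scalings.

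Per kilobase of coding length, a rough scale that leaves out the untranslated ends, the highest levels at 2 h were those of RPL41A (4201 normalized counts per kb), RPS12 (2427), RPS31 (2282), RPS3 (1877) and RPL31A (1769). RPL41A codes for the short peptide just named. Its coding sequence is only 78 bases long and 31.03% unique, so its place at the top is uncertain. RPS3 encodes a protein at the entry of the mRNA channel, and had 865 normalized counts per kb at 36 h, against 1877 at 2 h.

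The lowest levels per kilobase at 2 h were those of RPL39 (5.57), RPL43A (8.64), RPL22A (9.15), RPL36B (18.4) and RPL33A (19.7), the same 5 genes that did not pass the level filter. RPL39 encodes a small protein in the wall of the exit tunnel and has no paralog, yet it had reads in only 12 of 125 cells. The table also holds an identifier on the opposite strand with a neighbouring systematic number, not annotated in the R64 table used here, for 4 of these 5 genes, RPL36B being the exception. For RPL39 that identifier, YJL188C, had a mean of 4.87 in 2-h cells against 0.42 for RPL39. Over the family 12 genes had such an identifier beside them, and their median level at 2 h was 5.82, against 7.98 in the other 125. Whether reads of these genes were assigned to or lost with the neighbouring identifier was not tested, and the strand setting of the counting is not given in the sources used here.

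Within the family's own reads the shares of a few genes shifted. RPL3, which encodes a protein reaching into the peptidyl transferase centre, took 3.25 ± 0.84% of the family's reads in 2-h, 3.11 ± 0.87% in 16-h and 4.58 ± 2.38% in 36-h cells. RPL15A took 0.85 ± 0.36%, 1.35 ± 0.55% and 2.21 ± 1.68% at these ages, RPL41B 0.23 ± 0.08%, 0.42 ± 0.27% and 0.74 ± 0.46%, and RPS0B 2.18 ± 0.82%, 2.20 ± 1.09% and 0.97 ± 0.62%. The concentration of the reads hardly differed, as the 10 highest genes held 23.6% of the family's reads in 2-h, 22.2% in 16-h and 23.6% in 36-h cells.

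The stalk is the flexible arm of the large subunit to which the elongation factors bind, formed by RPP0 at its base and by the acidic proteins RPP1A, RPP1B, RPP2A and RPP2B. RPP0 had medians of 9.04, 8.38 and 7.86 at 2, 16 and 36 h and a difference of −1.56 at 36 h. RPP2A (medians 8.06, 7.37 and 6.74, difference −1.48) and RPP1B (7.91, 7.42 and 6.84, difference −1.27) fell as well. RPP1A (8.14, 7.79 and 7.36) had a difference of −0.90 and RPP2B (8.57, 8.11 and 8.06) of −0.48. RPP2B was found in every cell, and its lowest 36-h cell was at 6.78, against 6.89 for its lowest 2-h cell. The acidic pairs were thus lower by unequal amounts, with copy A minus copy B shifting by −1.001 for RPP2 between 2 h and 36 h.

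Ubiquitin in yeast is made in part as a fusion with ribosomal proteins. RPS31, the small-subunit fusion, had medians of 10.02 in 2-h, 9.49 in 16-h and 9.13 in 36-h cells and fell by 1.16. RPL40B, with medians of 7.05, 6.90 and 6.37, fell by 1.82, and RPL40A, with medians of 9.18, 8.74 and 8.46, had a difference of −0.99.

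Genes that work with the ribosome were compared through lists of names. The 67 mitochondrial ribosomal proteins, named MRP or RSM and making up the separate ribosome of the organelle, gave 25 genes above the level filter, of which 16 rose and none fell at 36 h (median difference +1.09). The 56 assembly factors named UTP, NOP, NOC or RRP, which build ribosomes in the nucleolus, gave 21, of which 20 fell (median −2.53). The filter acts on the mean over all ages, so which genes of such low sets pass it depends on the ages at which they are high. Over all genes of each set, without the filter, the mean level 36-h minus 2-h differed by +0.87 for the mitochondrial proteins. For the assembly factors this difference was −1.70, and for the cytosolic family −1.63. The cytosolic family thus moved with the assembly factors in sign.

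Of 8 elongation factor genes measured, 5 fell at 36 h: TEF1 (−1.19), TEF4 (−2.03), EFT1 (−1.45), EFT2 (−2.31) and YEF3, the fungal elongation factor (−2.20). TEF1, for example, was at 10.13 ± 0.32 in 2-h, 9.55 ± 0.53 in 16-h and 8.94 ± 1.01 in 36-h cells. Of 9 measured chaperones of ribosomal proteins and factors of the nascent chain, 6 fell, namely the RPL3 chaperone RRB1 (−2.23), the RPL10 chaperone SQT1 (−1.21), the RPS3 chaperone YAR1 (−1.07), and SSB1 (−2.79), SSB2 (−1.47) and ZUO1 (−1.49), which act on chains leaving the ribosome. ASC1 (−2.64), a protein of the small subunit outside the naming rule, STM1 (−1.59), which clamps idle ribosomes, and TIF6 (−2.22), which keeps the large subunit apart, also fell.

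Among 21 regulators of ribosomal protein transcription only 8 passed the level filter, and RAP1 itself did not. SCH9, the kinase downstream of TOR, was at 1.60 ± 2.34 in 36-h cells against 2.67 ± 2.79 in 2-h cells, a difference of −1.07. DOT6, a repressor of ribosome biogenesis genes, was at 4.64 ± 3.17 in 36-h cells against 2.90 ± 3.39 in 2-h cells, a difference of +1.74. In both genes the spread among cells was larger than the difference.

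Between the subgroups the family's mean level was somewhat lower in S than in F cells, and the cells overlapped widely. At 16 h its level was 6.72 ± 0.79 in 16-h/S and 7.13 ± 0.37 in 16-h/F cells, a difference of −0.41, while the medians of 7.12 and 7.16 nearly coincided. A randomly drawn S cell exceeded an F cell with a probability of 0.380. Of the 16-h/S cells 8 of 17 lay below the lowest 2-h cell (exact 95% interval 22.98 to 72.2%), against 5 of 26 16-h/F cells (6.55 to 39.4%). Such intervals cover the error of counting cells only and do not compare the subgroups. With only cells whose spike-in share was at most 0.5, 25% of 16-h/S and 16% of 16-h/F cells lay below the lowest 2-h cell. The difference in level was then −0.02, and with the log2 of mean normalized counts over all cells it was −0.09. The share of reads was 15.1 ± 4.10% in 16-h/S and 17.6 ± 3.83% in 16-h/F cells.

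At 36 h the level was 5.64 ± 1.14 in 36-h/S and 5.98 ± 1.30 in 36-h/F cells, a difference of −0.34, with medians of 5.70 and 6.45 and a probability of 0.366 that an S cell exceeded an F cell. With the log2 of mean normalized counts this difference was +0.07. The share of reads was 7.47 ± 3.26% in 36-h/S and 9.28 ± 4.61% in 36-h/F cells, with medians of 7.15% and 10.6%. Below the lowest 2-h cell lay 16 of 18 36-h/S and 22 of 27 36-h/F cells. The other genes showed the same: the median gene difference S minus F was −0.35 in the family and −0.33 in the other genes at 16 h, and −0.39 and −0.48 at 36 h. The lower number of genes detected in S cells, given above, goes the same way, and its part in these differences was not tested. Among cells with 1500 to 2500 genes detected the difference S minus F was −0.33 at 16 h (9 and 13 cells) and −0.08 at 36 h (10 and 14 cells).

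By gene, 11 of 132 family genes were lower by 1 or more in the S than in the F cells of the 16-h group (19.5% of all 1905 genes), and 21 in those of the 36-h group (29.1% of all genes), so the family's shares were below those of all genes. These counts were sensitive to the processing and ranged from 0 to 19 at 16 h and from 1 to 30 at 36 h over the alternatives tried. The lowest at 16 h were RPL18B (3.21 ± 2.81 in S and 4.89 ± 2.50 in F cells), RPL8A (4.35 ± 2.81 and 6.01 ± 1.66), RPL6B (5.85 ± 2.55 and 7.32 ± 0.65) and RPL33B (3.78 ± 3.13 and 5.21 ± 1.76), all of the large subunit. The highest differences at 16 h were small, up to +0.33 for RPP1A (7.92 ± 0.59 in S and 7.58 ± 0.60 in F cells), followed by RPL22B (+0.32), RPS14A (+0.30) and RPL20A (+0.30).

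At 36 h the lowest were RPL9A (4.82 ± 3.43 in S and 6.78 ± 2.67 in F cells), RPL16B (4.83 ± 3.40 and 6.71 ± 2.09), RPS4B (5.43 ± 3.22 and 7.27 ± 2.53) and RPS21A (4.34 ± 2.99 and 6.14 ± 1.61). RPS9B was the gene that was higher by 1 in 36-h/S cells, at 7.05 ± 1.25 against 6.04 ± 2.49 in F cells, and it was found in 18 of 18 S and 24 of 27 F cells. RPL22B (+0.94), RPS23A (+0.88) and RPL30 (+0.86) came next. RPL22B had reads in only 8 S and 10 F cells, and RPL30 encodes a protein known to block splicing of its own transcript. The stalk as a whole did not separate the subgroups, with S minus F differences of its mean level of +0.02 at 16 h and −0.01 at 36 h.

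The level was also set against the number of divisions of each cell within an age. Pearson's r was 0.28 and Spearman's rho 0.17 at 16 h (43 cells), and 0.23 and 0.17 at 36 h (45 cells). Leaving out the 2 cells with the most extreme generation, r was 0.28 to 0.42 at 16 h, over the 7 ways that ties allow, and 0.02 at 36 h, so the 36-h value rested on 2 cells. With only cells whose spike-in share was at most 0.5, r at 16 h was −0.07. Generation also correlated with the genes detected, at 0.28 at 16 h and 0.47 at 36 h, and this was not separated from the level. Of the 120 family genes at a mean log2 level of 5 or more, 101 correlated positively with generation at 16 h and 94 at 36 h, against 68.8% and 70.0% of the 250 other genes of that level.

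**Figure D3:**
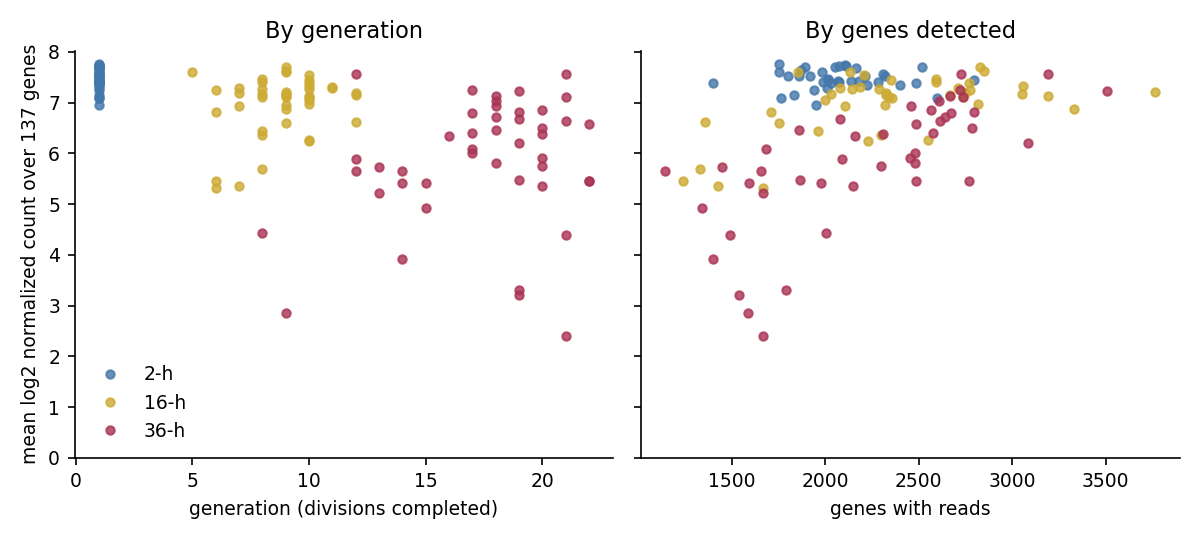
Level of the ribosomal protein genes per cell (mean log2 normalized count over 137 genes) against the divisions completed (left) and against the number of genes with reads (right), coloured by age group, each point a cell. The 36-h cells between 18 and 22 divisions span nearly the full range from 2.41 to 7.56. The lowest 36-h cell, at 2.41, has 1667 genes detected, and few 2-h cells have so few. All 2-h cells lie at 6.95 or above, and the 2-h cell with the fewest genes detected (1399) lies at 7.39.

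Cell-to-cell spread of the family's level was larger at later ages. Relative to 2-h cells, the SD of the family's level was 6.27 times as large in 36-h and 3.06 times as large in 16-h cells. Among the 120 family genes at 5 log2 or more, the median SD of a gene was 0.61 in 2-h, 1.01 in 16-h and 2.21 in 36-h cells, and it was higher at 36 h than at 2 h in 120 of 120 and higher at 16 h than at 2 h in 113 of 120. For the 250 other genes at 5 log2 or more over all cells the medians were 2.08, 2.08 and 2.66, and 76.4% had a higher SD at 36 h than at 2 h. These other genes are not matched to the family in level, with a mean level of 6.36 in 2-h cells against 7.47 for the 137 family genes, and they were chosen on the mean over all ages, so the SDs of both sets are given side by side only. When the mean of the other members was subtracted from each gene in each cell, the median SD of the remainder was 0.59 in 2-h, 0.88 in 16-h and 1.80 in 36-h cells. Spread of a log2 value includes cells with no read of a gene, which were more frequent at 36 h.

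The genes moved together more at later ages. Over all pairs of the 137 genes the median Pearson correlation across cells was 0.07 in 2-h, 0.24 in 16-h and 0.31 in 36-h cells. The pairs share libraries, size factors and depth, which is also true of other genes, and for the 250 other genes of at least 5 log2 the median was 0.02, 0.07 and 0.06. As stated for the SDs, these other genes are not matched to the family in level, so their correlations are also given side by side only. The family's level correlated with the genes detected at −0.02, 0.57 and 0.70 at the same ages. The part of detection in the rise was not tested. Among the 120 family genes of that level 66.0% of pairs were positive in 2-h, 87.6% in 16-h and 93.5% in 36-h cells, against 53.9%, 63.6% and 61.9% of pairs of other genes. The first principal component of these 120 genes held 11.6%, 30.9% and 37.4% of their variance at the 3 ages.

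**Figure D4:**
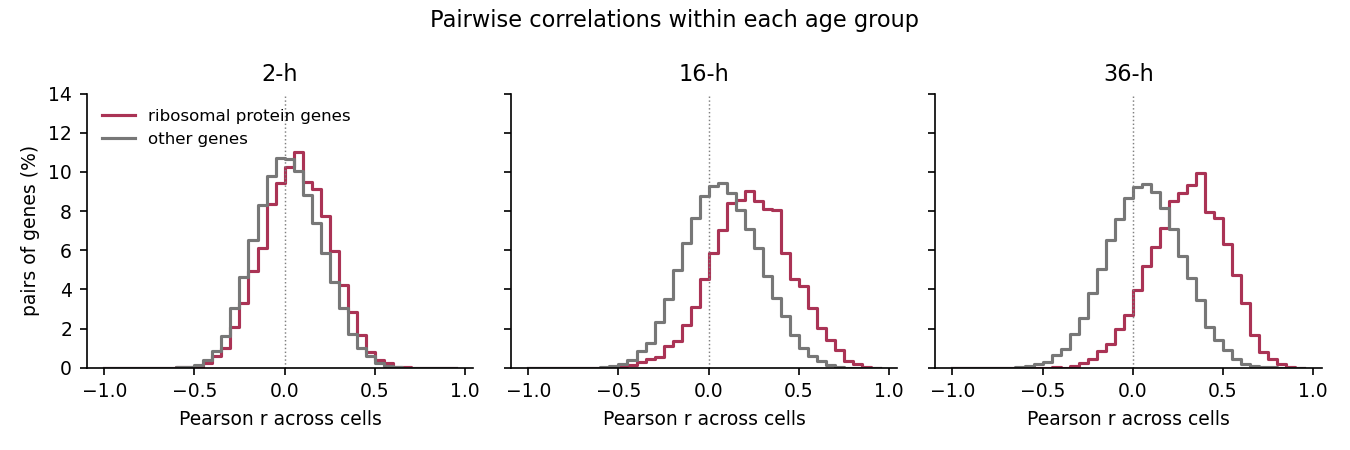
Distribution of the Pearson correlations across cells of all pairs among the 137 ribosomal protein genes (red) and among the 250 other genes whose mean log2 level was 5 or more (grey), as percent of pairs per bin, at 2 h, 16 h and 36 h. The distribution of the ribosomal protein genes lies slightly right of the other at 2 h (medians 0.07 and 0.02) and further right at 16 h (0.24 and 0.07) and 36 h (0.31 and 0.06).

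The genes did not follow the family equally. The median correlation of a gene with the mean of the other members was 0.23 in 2-h, 0.53 in 16-h and 0.58 in 36-h cells. At 36 h it reached 0.85 for RPS28A and 0.84 for RPS18B, both of the small subunit. The lowest values at 36 h were those of RPL41B (−0.19), RPS22B (−0.12), RPL15B (−0.01), RPL39 (0.10) and RPL43A (0.12). RPL39 and RPL43A were hardly detected, whereas RPL41B was found in every cell and was also negative at 16 h (−0.52). RPS22B, whose intron hosts the small nucleolar RNA gene SNR44, fell by 1.51 at 36 h (medians of 6.53 in 2-h, 6.13 in 16-h and 4.84 in 36-h cells) without following the rest from cell to cell.

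Most paralog pairs kept the order of their copies, while the size of the difference between copies shifted. Of 59 pairs, 50 had the same copy higher at all 3 ages, including all 28 that differed by 1 or more at 2 h, and in 57 pairs both copies were lower at 36 h than at 2 h. Coding lengths were equal in 54 pairs and differed by at most 12 bases, so copies of a pair can be set beside each other without a length correction. The copies differed most at 2 h in RPL43 (A minus B −7.75), RPL7 (+6.19), RPL15 (+6.14), RPL36 (+5.15) and RPS9 (−4.53), differences in mean log2 that stayed of the same sign at 16 h and 36 h. Of these genes RPL43A and RPL36B did not pass the level filter, and RPL7 was only 37.7% unique. RPL43A and RPL7B also have an unannotated opposite-strand identifier beside them. Whether the counting made part of these differences was not tested, and these pairs are among the 28 above.

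Between 2 h and 36 h the difference A minus B shifted by 1 or more in 14 pairs, 11 of which are among the 42 pairs that are at least 80% unique with both copies above the level filter. The median size of the shift was 0.58, and the copy that was higher at 2 h gained on the other in 29 of 59 pairs, so neither the major nor the minor copies fell more in general. With the log2 of mean normalized counts, 3 pairs shifted by 1 or more: RPL16 (−1.25), RPL18 (+1.04) and RPS18 (+1.15).

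RPS18 was balanced in young cells and unbalanced in old ones. RPS18A had a median of 8.20 at 2 h (5.65 to 9.33), 8.10 at 16 h (6.38 to 9.20) and 7.76 at 36 h (0 to 9.36). RPS18B had a median of 8.17 at 2 h (6.61 to 9.01), 7.34 at 16 h (0 to 8.48) and 6.51 at 36 h (0 to 8.42). Copy A therefore had a difference of −0.77 at 36 h and copy B of −2.70, and copy A was above copy B in 21 of the 37 2-h, 35 of the 43 16-h and 38 of the 45 36-h cells. The printed ends of both coding sequences differ at 5 bases, and 98.0% of their 50-base stretches tell the copies apart.

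RPS26 shifted in the same way. RPS26A had medians of 7.93, 7.98 and 7.58 at 2, 16 and 36 h and was found in every cell, and RPS26B had medians of 7.59, 6.998 and 6.54 and was found in 39 of 45 36-h cells. Their differences at 36 h were −0.51 and −2.35, and A minus B was 0.39 in 2-h, 0.93 in 16-h and 2.23 in 36-h cells. In log2 of mean normalized counts the shift was +0.78.

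In mean log2 the largest shift, +2.33, was that of RPS14, with RPS14B at a difference of −3.49 and RPS14A, the major copy, at −1.16. RPS14A had medians of 9.35 in 2-h, 8.60 in 16-h and 8.46 in 36-h cells. RPL33 (+1.94) came next, a pair whose copy A did not pass the level filter, and RPL13 shifted by −1.51, with copy A at a mean of 7.14, 6.40 and 4.44 at 2, 16 and 36 h and copy B at 9.19, 8.54 and 8.01. RPL16 shifted by −1.44 and changed its order, with A minus B at 0.51 in 2-h, 0.02 in 16-h and −0.92 in 36-h cells. In log2 of mean normalized counts the shifts were +0.97 for RPS14, +0.82 for RPL33 and −0.30 for RPL13, and the largest was the −1.25 of RPL16 given above. The RPS0 copies moved alike, with a shift of +0.12 and a correlation across 36-h cells of 0.76.

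**Figure D5:**
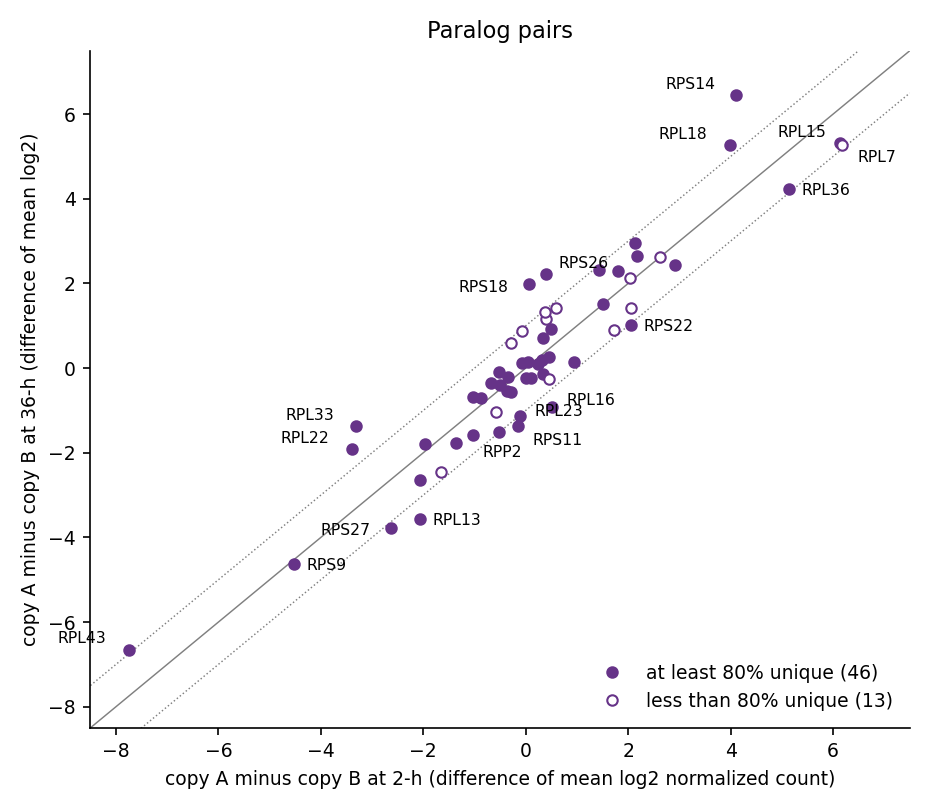
Difference of mean log2 normalized count between copy A and copy B of 59 paralog pairs at 36 h (vertical) against 2 h (horizontal). The solid line marks no shift and the dotted lines a shift of 1, filled points are pairs whose coding sequences are at least 80% unique, and RPS14, RPL33, RPS18 and RPS26 lie above the upper dotted line while RPL13 and RPL16 lie below the lower.

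Across cells, copies of a pair were not much closer to each other than to the rest of the family. The median correlation between copies was 0.10 in 2-h, 0.26 in 16-h and 0.40 in 36-h cells, against 0.07, 0.24 and 0.31 for pairs of genes that are not copies of each other. In RPS18 the copies had a correlation of −0.33 across 2-h cells, 0.33 across 16-h cells and 0.35 across 36-h cells, and in RPL15 of 0.20, 0.04 and −0.20.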

How the data were processed

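Per the labels and the study's methods, the authors made 1 Smart-seq2 library per cell, aligned paired reads to the R64 genome by HISAT2 2.1.0, used SAMtools 1.1 for sorting and featureCounts for counts per gene, whose strand setting is not given in the sources used here. The authors divided each count by a size factor of the cell, added a pseudocount of 1 and deposited the log2 of the result. All values above 0 were whole multiples of 1 read in a cell (tolerance 0.05), so whole reads were recovered for shares, depth and detection. Of 136 cells listed, 125 are in the table, and 0 other columns of per-cell values were found. Groups came from the labels. Subgroup, generation and spike-in share came from the per-cell record that accompanies the study and are not in the labels. Of the identifiers, 5693 matched the R64 annotation and 304 did not.

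Means of log2 values over cells, their differences, SDs and correlations were computed with Python 3.11.15, numpy 2.4.6, pandas 2.3.3 and scipy 1.17.1, pairs were aligned with Biopython 1.88, and the computation was tested on simulated data. With 1 sample a group no test was made. A difference of 1 was counted among genes whose mean log2 level was 2 or more, and correlations were compared among genes at 5 or more. The genes named were the 8 lowest and 4 highest at 36 h against 2 h, the 4 lowest and 4 highest S minus F differences, the 5 highest and 5 lowest per kilobase, the 5 least correlated with the family, the 5 pairs with the largest copy difference and the 5 with the largest shift, the stalk and the ubiquitin fusions; RPL3, RPL41A, RPL35, RPS0, RPL16, RPL18 and the composition examples were added after their values were seen. Of the listed related genes, those past 1 were named, except for an item that is not reported here. Alternatives were the scaling, the pseudocount, the level filter, thinning to 40000 reads, sequence uniqueness, spike-in share and the way cells are averaged. The members and lists were chosen with earlier results of these data known.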

Additional observations from a re-analysis of the deposited data

How the results depend on the processing

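Of 161 alternative values over 25 results, 143 stayed the same within the spread among cells or within 1.5 times the count, 16 moved and 2 changed sign. The spread among cells can be wider than the difference judged, so this count is no measure of robustness. For 16-h/S minus 16-h/F, for example, −0.02 with a spike-in share of at most 0.5 was counted as the same as −0.41. With the log2 of mean normalized counts 61 family genes fell at 36 h against 2 h, 1 fell at 16 h against 2 h, 1 was lower in S than in F cells at 36 h and 0 at 16 h, 3 paralog pairs shifted, and the difference in level 36-h/S minus 36-h/F became 0.0669. The count at 16 h against 2 h was 2 with the same sum of reads (7.98%) and 2 with the same sum outside the family (8.24%). It was 1 with a spike-in share of at most 0.5 (7.03%) and 0 with a pseudocount of 10 (2.41%). At 16 h the count lower in S than in F cells was 17 with the same sum of reads, 19 with the same sum outside the family, 2 with a spike-in share of at most 0.5, 2 with a pseudocount of 10 and 6 with medians over cells, an alternative chosen after seeing the data. At 36 h this count was 3 with a pseudocount of 10. With medians over members the SD ratio of 36-h to 2-h cells was 10.0, and with a spike-in share of at most 0.5 the correlation with generation at 16 h was −0.0718. The cause of these changes was not tested. The level difference 36-h minus 2-h lay between −2.10 and −0.94 over its alternatives, and 16-h/S minus 16-h/F between −0.54 and −0.02. No paired analysis was possible because replicate numbers only name cells and no result comes from a test. Depth limits the genes near 0 reads, for which a missing read is no evidence of a missing transcript.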

Other observations

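Genes outside the family that moved with it across the 45 cells of the 36-h age group were looked at among the 250 other genes whose mean log2 level was 5 or more, as a description. The highest Pearson correlations with the family's level were those of ILV3, an enzyme of branched-chain amino acid synthesis (0.72), TRP5, which makes tryptophan (0.67), GAS1, a cell wall glucanosyltransferase (0.65), YEF3, the fungal elongation factor (0.65), and SSB2, a chaperone of the nascent chain (0.64). TRP5 was higher at 36 h than at 2 h (+1.16), whereas ILV3 (−1.66), GAS1 (−1.60), YEF3 (−2.20) and SSB2 (−1.47) were lower. These genes share libraries and size factors with the family.

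The lowest correlations were those of TAR1 (−0.70), HXT1, a low-affinity glucose transporter (−0.65), APC2, a subunit of the anaphase-promoting complex (−0.64), SOD1, the cytosolic superoxide dismutase (−0.61), and YLR154C-G (−0.61). TAR1 and YLR154C-G lie within or beside the ribosomal DNA repeats. HXT1 was at a mean log2 level of 5.76 in 2-h, 9.21 in 16-h and 10.72 in 36-h cells, and at 2 h its correlation with the family was 0.13.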
